A study of Mus musculus with 8 samples.

Results

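Ribosome footprints were compared between mouse embryonic stem cells (mESCs) without Dis3l2 (knockout) and heterozygous mESCs (control). Every listed gene with a mean of at least 50 normalised units over the 4 footprint libraries was taken, which gave 6260 of 8125 genes and left 1865 under the filter. The knockout group was Dis3l2 -/-, made with CRISPR/Cas9, and the control group was Dis3l2 +/-. Both were kept undifferentiated with LIF and serum and treated with cycloheximide, which holds ribosomes in place on mRNA, before footprints were prepared with the TruSeq Ribo Profile kit and depleted of rRNA. Each group had 2 footprint libraries, described in the methods as biological replicates. The sources used here do not say whether either line was a single clone, so a difference between clones and an effect of genotype cannot be told apart. The study asked how loss of this enzyme affects mRNA translation, and 4 input libraries of the same cells, made from mRNA without nuclease footprinting, served here only as a second readout for the genes described.

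A translating ribosome shields a short piece of mRNA from nuclease, and sequencing these ribosome-protected fragments (RPFs) counts the ribosomes on each coding sequence. The RPF value of a gene therefore carries both the amount of its mRNA and how densely ribosomes sit on it. DIS3L2 is a cytoplasmic 3′ to 5′ exoribonuclease that degrades RNAs carrying a tail of uridines, among them faulty non-coding RNAs, and its loss in humans causes Perlman syndrome, an overgrowth disorder.

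The RPF libraries differed in depth with genotype, with 268255 and 140163 reads in knockout and 558962 and 1126782 in control. The median tested gene was covered by 19.5 and 10 reads in knockout and by 40 and 79 in control. The cells carried footprints of all 10 embryonic stem cell markers, summing to 14945 and 14975 normalised units in knockout and to 16210 and 15499 in control, with log2 changes of single markers from -0.66 to 0.63. Of 10 markers of fibroblast feeder cells only Cald1 was listed, at 32.9 and 31.1 in knockout and 51.2 and 36.8 in control. Dis3l2 was not among the genes analysed here, so the genotype names were not checked against the disrupted gene.

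Footprints on most genes did not differ detectably between genotypes, while a small set of mostly short mRNAs did. Nearly all of these lay at high footprint levels, where the SE of a change was smallest. The median SE was 0.22 in the highest quintile of RPF values and 0.57 in the lowest. Of 6260 genes tested, 39 passed (limma, Benjamini-Hochberg adjusted p under 0.05), which was 0.623% of the genes tested. The 21 genes higher in knockout made up 0.335% and the 18 lower genes 0.288%, and 679 genes had an unadjusted p under 0.05. The genes that rose were led by Grb10, Pdcd5, Mob2 and a group of histone genes, together with 7 ribosomal proteins, and those that fell were led by Hist1h4b, Ost4, Gar1, Rps20, Myl6, Stmn1 and Rpl24. The median log2 change over all tested genes was -0.02, with 3028 genes above 0 and 3232 below. For 2653 genes, or 42.4%, the knockout pair fell outside the range of the control pair, above it for 1350 and below it for 1303. All 39 genes that passed were among them.

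**Figure D1:**
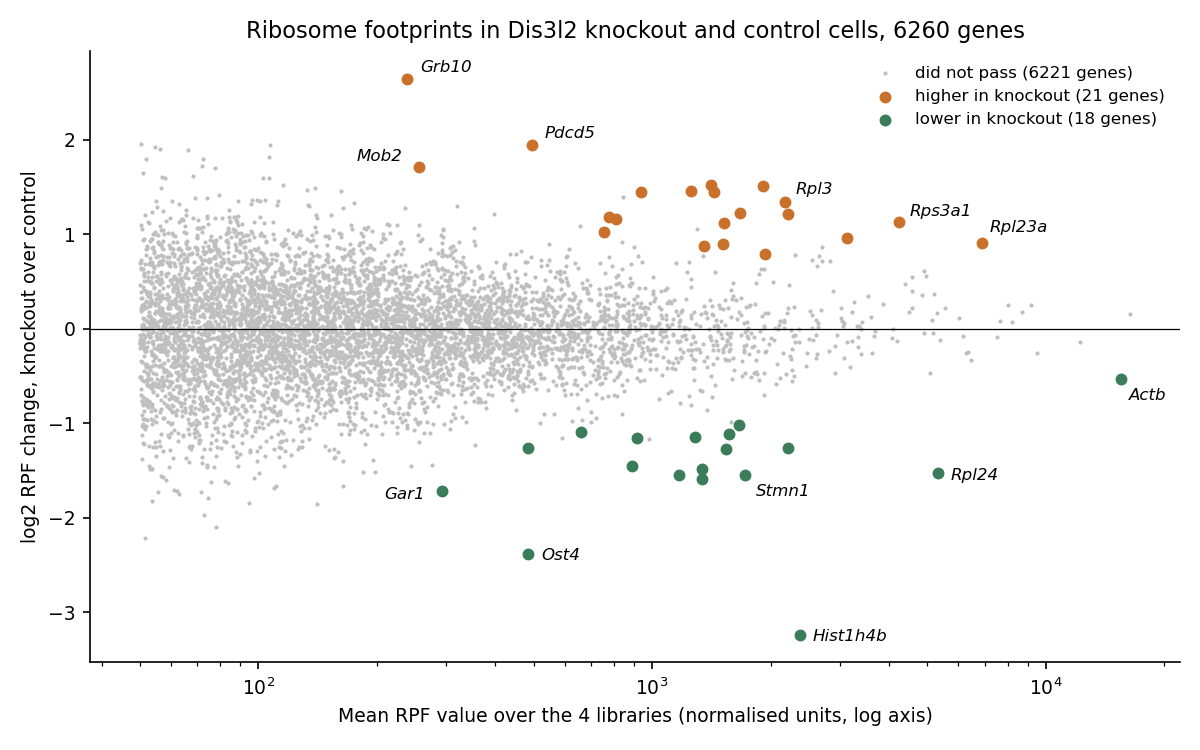
Log2 RPF change (knockout over control, vertical axis) against the mean RPF value over the 4 libraries (normalised units, log axis) for 6260 genes. Orange points are the 21 genes that rose, green points the 18 that fell and grey points genes that did not pass; the cloud narrows as the level rises, and 36 of the 39 genes that passed lie in the highest quintile, from 410 units upward.

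Directions rest on the names of the library columns, since the authors' deposited fold change of translation efficiency had the sign opposite to the column ratio for 985 of 985 genes called there, and each signed value would turn if the names were exchanged. The calls also changed with the settings. In limma without a mean trend, which pools spread over genes in another way, 0 genes passed (597 at an unadjusted p under 0.05). Thinning reads to the depth of the shallowest library, which also discards most control reads, left 0 in limma (449) and in edgeR (454). On all reads edgeR called 90 genes (1.44% of those tested, 46 higher and 44 lower). DESeq2 called 56 (3.67% of the 1527 genes it gave an adjusted p, 30 higher and 26 lower). Of the 39 genes, edgeR called all 39 and 35 were called by the 3 tools. Without knockout replicate 1 and replicate 2, 873 and 759 genes passed, and without control replicate 1 and replicate 2, 34 and 60. Leaving out control replicate 1 ended the calls of Calm3, Eif2s2, Eif4h, Gar1, Hist1h2ac, Hist1h3e, Hist1h3i, Hist1h4i, Lsm3, Mob2, Rpl36, Tra2a and Uqcrfs1, and leaving out control replicate 2 those of Gar1, Hist1h2ac and Lsm3. Leaving out knockout replicate 1 ended the call of Actb.

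**Figure D2:**
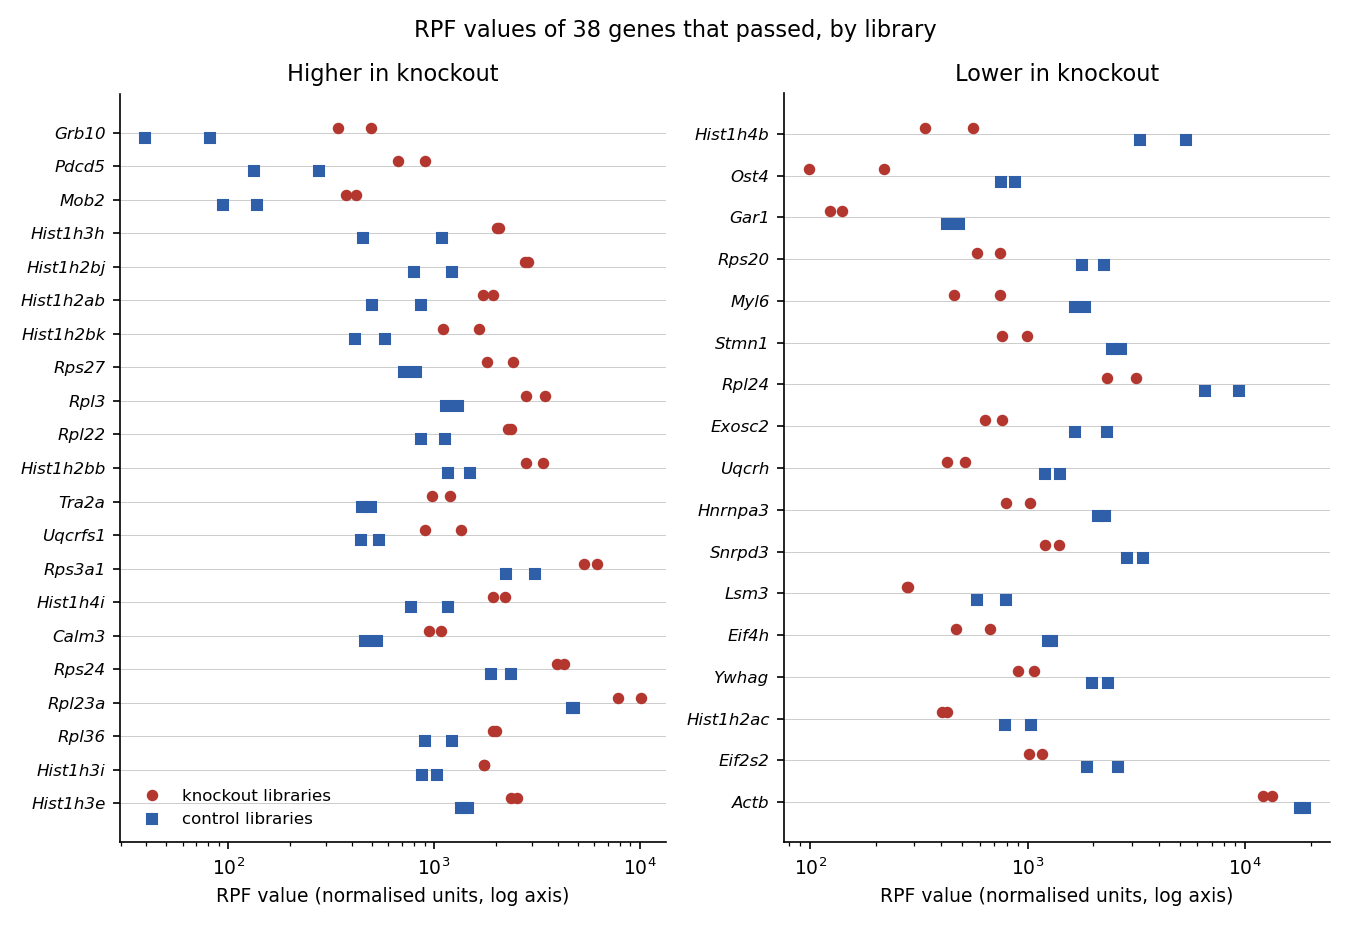
RPF values (normalised units, log axis) of 38 of the 39 genes that passed, in each knockout library (red circles, upper of each pair of rows) and each control library (blue squares). The 21 genes higher in knockout are on the left and 17 of the 18 lower genes on the right, ordered by size of change, and for each gene the knockout pair lies outside the control pair.

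Histones of the replication-dependent class, which package newly copied DNA and whose mRNAs end in a stem-loop in place of a poly(A) tail, held 10 of the 39 genes. Of 58 tested members 8 rose and 2 fell, against 21 and 18 of all 6260 genes. The median log2 change was 0.33, against -0.02 over all genes. Over all 6260 genes the knockout pair lay wholly above the control pair for 1350 and wholly below it for 1303. For these histones the counts were 27 and 6 of 58. Over the same genes control replicate 1 was below control replicate 2 by a median of 0.30 on the log2 scale (-0.30). These genes took 4.71% and 5.08% of RPF reads in the knockout libraries and 3.72% and 4.56% in the control libraries. An exact permutation test of 2 against 2 libraries cannot go below p = 0.333, so no such share was tested.

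The largest fall of all genes was that of Hist1h4b, which encodes the core histone H4 and lies in the main histone cluster at chr13:23757013-23757409 (GRCm38). It had 337 and 560 normalised units in knockout, against 5325 and 3273 in control, from 41 and 36 reads in knockout and 1352 and 1688 in control. The groups stood far apart, with a log2 change of -3.23 ± 0.25 (SE; limma adjusted p = 2.5e-05). Its input values overlapped, at 722 and 797 in knockout and 706 and 742 in control. In footprints Hist1h4b made up 1.30% and 1.77% of the summed H4 value in knockout, against 19.7% and 9.88% in control, while in input it made up 8.03% and 8.33% in knockout and 7.11% and 7.88% in control.

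The other 11 H4 genes moved less and in both directions. Their knockout pair lay wholly above the control pair for 7 and wholly below it for 2, against 1350 and 1303 of all 6260 genes. Hist1h4i rose, with 1947 and 2208 units in knockout and 776 and 1167 in control (log2 change 1.12 ± 0.21, adjusted p = 0.020). Hist1h4h (0.71) and Hist1h4f (0.67) lay higher in both knockout libraries than in either control library and were called by edgeR and DESeq2 but not by limma, as was Hist4h4, which lay lower (-0.80). Hist1h4c, the H4 gene with the highest RPF value, had 9358 and 13560 in knockout and 9472 and 16344 in control (-0.14 ± 0.21), which overlapped. The H4 sum over 12 genes was 26005 and 31568 in knockout and 26989 and 33121 in control, a ratio of means of 0.958, and without Hist1h4b the ratio was 1.10.

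For Hist4h4, 2.48% of the windows of 28 bases in its coding sequence also occurred in another coding sequence. Most other H4 genes have nearly the same coding sequence, so which of these a footprint belongs to depends on few bases. The first 80 coding bases of 4 of them are shown because the gene with the largest fall and the genes that rose or overlapped differ only at scattered positions; capitals mark bases that differ from Hist1h4b (GENCODE M21, GRCm38; Hist1h4b chr13:23757021-23757100 plus strand, Hist1h4i chr13:22041244-22041323 minus strand, Hist1h4h chr13:23531115-23531194 plus strand, Hist1h4c chr13:23698370-23698449 minus strand).
Hist1h4b: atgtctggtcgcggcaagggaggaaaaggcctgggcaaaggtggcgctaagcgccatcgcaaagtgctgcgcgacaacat
Hist1h4i: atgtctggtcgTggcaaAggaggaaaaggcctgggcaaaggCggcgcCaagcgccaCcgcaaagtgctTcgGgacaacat
Hist1h4h: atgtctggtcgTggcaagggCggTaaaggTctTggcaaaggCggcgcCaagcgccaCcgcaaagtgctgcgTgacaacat
Hist1h4c: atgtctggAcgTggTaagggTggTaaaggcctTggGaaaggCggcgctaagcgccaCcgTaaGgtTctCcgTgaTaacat
In this stretch Hist1h4i differed from Hist1h4b at 7 positions, Hist1h4h at 9 and Hist1h4c at 15, and over all 309 coding bases at 13, 11 and 18. Of the 282 windows of 28 bases in the Hist1h4b coding sequence, about the length of a footprint, 54 occurred in no other coding sequence, and 45 of these lay within the 80 bases shown. The sources used here do not say how reads that match several genes were counted, so the values of near-identical histone genes are uncertain as to which copy they count.

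Among the other families, H3 had the largest shift. The summed H3 value over 10 genes was 17041 and 17386 in knockout and 8747 and 12004 in control, a ratio of means of 1.66, against a ratio of 0.959 in input. Hist1h3h (1.52), Hist1h3i (0.88) and Hist1h3e (0.79) passed. For 7 of the 10 genes the knockout pair lay wholly above the control pair, against 1350 of all 6260 genes. Hist1h3h had 2029 and 2068 units in knockout and 453 and 1096 in control, and its DESeq2 adjusted p was 0.33. The 2 control libraries were themselves more than 2-fold apart for this gene.

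H2B, one of the core histones that pairs with H2A, summed to 19752 and 18521 in knockout and to 12539 and 13528 in control over 15 genes (ratio 1.47), with no overlap. Hist1h2bj rose to 2761 and 2877 in knockout, against 796 and 1222 in control (log2 change 1.51 ± 0.20, adjusted p = 0.0023). Hist1h2bk (1.45) and Hist1h2bb (1.21) rose as well. H2A summed to 8093 and 9533 in knockout and to 6061 and 7937 in control over 15 genes (ratio 1.26), and its genes moved both ways: Hist1h2ab rose (1.46) with 1734 and 1928 in knockout and 500 and 865 in control, while Hist1h2ac fell to 427 and 404 in knockout, against 784 and 1032 in control (-1.10 ± 0.23, adjusted p = 0.043). The linker histone H1 sum had a ratio of 1.10, and its groups overlapped, with 32980 and 33745 in knockout and 27619 and 33125 in control. Of 11 replacement histones, which are made throughout the cell cycle, 0 passed in limma. At an unadjusted limma p under 0.05 there were 4, against 679 of all 6260 genes. DESeq2 called 0 (no adjusted p for 6). edgeR called 1, the linker variant gene H1fx (1.28, edgeR adjusted p = 0.027). The median over the 11 genes was 0.20.

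**Figure D3:**
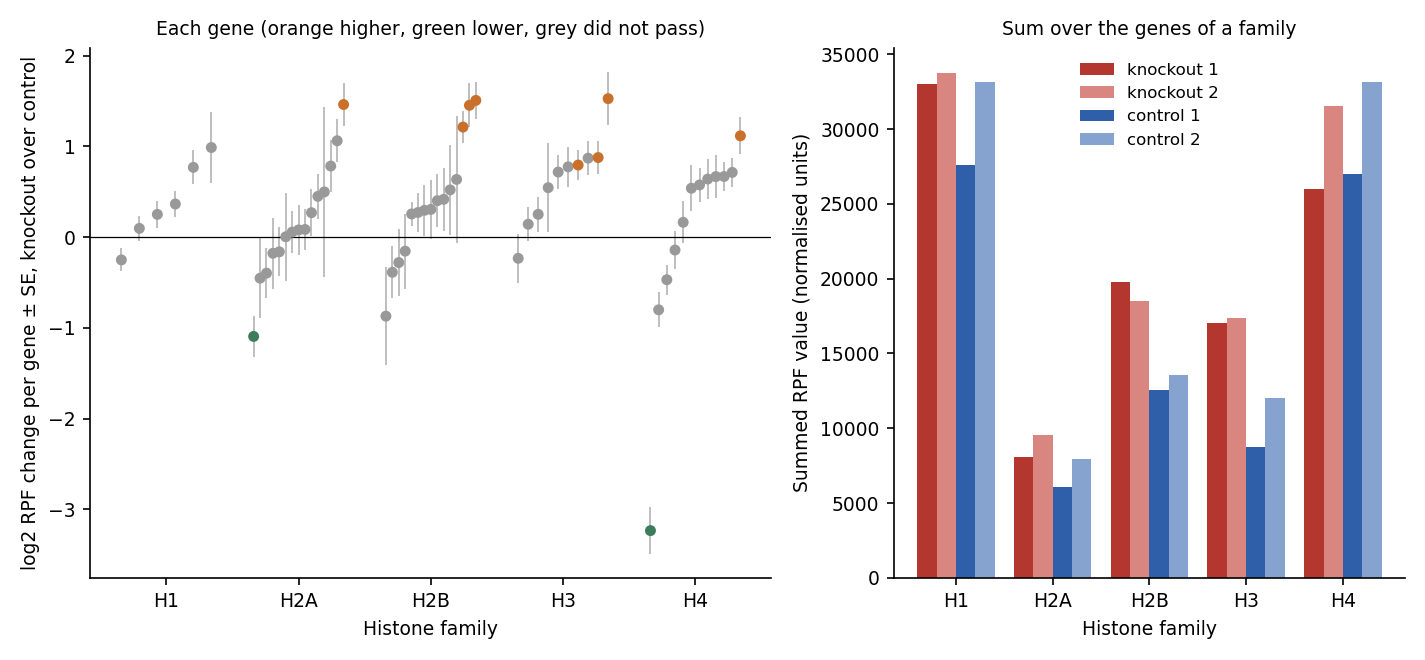
Left, log2 RPF change of each replication-dependent histone gene (knockout over control, points with SE bars) by family, with genes that rose in orange, genes that fell in green and the rest in grey. Right, the summed RPF value of each family in the 2 knockout libraries (red) and the 2 control libraries (blue), in normalised units; the H2A, H2B and H3 sums do not overlap between genotypes, and Hist1h4b stands alone at -3.23.

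Ribosomal proteins, the building blocks of the ribosome itself, moved in both directions. Of 46 tested proteins of the large 60S subunit 4 rose and 1 fell (median 0.08). Of 32 proteins of the small 40S subunit 3 rose and 1 fell (median 0.18). Thus 10.9% of the 60S and 12.5% of the 40S proteins passed, against 0.623% of all tested genes. Of the 39 genes that passed, 36 lay in the highest quintile of footprint level, and genes of like level were not compared. The 60S proteins took 4.01% and 3.82% of RPF reads in knockout and 3.33% and 3.84% in control, and the 40S proteins 2.63% and 2.47% in knockout and 2.08% and 2.22% in control. Within the 40S subunit the values did not overlap between genotypes, and within the 60S subunit they did.

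Rpl24, a 60S protein, fell to 2317 and 3141 units in knockout, against 6526 and 9353 in control (log2 change -1.53 ± 0.18, adjusted p = 0.0015). Rps20, a protein of the 40S head, fell to 583 and 746 in knockout, against 2253 and 1780 in control (-1.59 ± 0.20, adjusted p = 0.0020). The groups did not overlap for either gene. In the opposite direction Rpl3, a protein close to the site of peptide bond formation, rose to 3451 and 2799 in knockout, against 1150 and 1303 in control (1.34 ± 0.17, adjusted p = 0.0020). Rpl23a, which lies at the tunnel exit where the signal recognition particle docks, had 10139 and 7853 in knockout and 4683 and 4815 in control (0.91 ± 0.14, adjusted p = 0.0045). Rpl22 (1.23) and Rpl36 (0.89) were the other 60S genes that rose.

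Of the 40S genes that rose, Rps3a1 had 6236 and 5334 units in knockout and 2237 and 3114 in control (1.12 ± 0.17, adjusted p = 0.0033), and Rps24 had 3952 and 4276 in knockout and 1890 and 2364 in control (0.96). Rps27 (1.45 ± 0.20, adjusted p = 0.0024) had 1808 and 2426 in knockout and 713 and 814 in control. Each of the 225 windows of 28 bases in its coding sequence also occurs in its retrocopy Rps27rt, so the value may count both. The input levels of these ribosomal protein genes changed by between -0.16 (Rpl36) and 0.12 (Rps20) on the log2 scale. Rpl13 (0.73), Rps21 (0.55), Rpl14 (-0.86) and Rpsa (-0.78) were called by edgeR and DESeq2 but not by limma.

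Among the factors that load ribosomes onto mRNA, 2 of 46 tested initiation factors fell and 0 rose (median -0.10). Over all 6260 tested genes 18 fell and 21 rose, and 679 had an unadjusted limma p under 0.05. Eif2s2, the beta subunit of eIF2, which brings the initiator tRNA, fell to 1167 and 1011 units in knockout, against 2607 and 1871 in control (log2 change -1.02 ± 0.19, adjusted p = 0.023). Eif4h, which aids the helicase eIF4A, fell to 468 and 669 in knockout, against 1288 and 1235 in control (-1.16 ± 0.22, adjusted p = 0.022). The groups were apart for both genes, and the input level of Eif2s2 was 0.30 higher in knockout on the log2 scale. Of 13 elongation and termination factors and 22 cytosolic tRNA synthetases 0 passed in limma and 0 in DESeq2 (no adjusted p for 3 of the 13), with 0 and 1 called by edgeR, 1 and 3 at an unadjusted limma p under 0.05, and medians of -0.08 and 0.06. Eef1a1, which delivers tRNAs to the ribosome, had 5111 and 5070 in knockout and 3588 and 3749 in control (0.47, adjusted p = 0.19), and Eef2, which moves the ribosome along, had 5645 and 5971 in knockout and 7093 and 6663 in control (-0.24, adjusted p = 0.51). Naca, which binds new proteins as they leave the ribosome, had 1093 and 1104 in knockout and 547 and 607 in control (0.92, adjusted p = 0.058) and was called by edgeR and DESeq2.

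Of the lists for the endoplasmic reticulum (ER), where secreted and membrane proteins are made, that of the oligosaccharyltransferase held 1 gene that passed, Ost4. Ost4 encodes a very small membrane subunit of this enzyme, which attaches sugar chains to proteins entering the ER. It had 98.6 and 218 units in knockout, against 752 and 873 in control, from 12 and 14 reads in knockout and 191 and 450 in control. The groups did not overlap, and the log2 change was -2.38 ± 0.33 (adjusted p = 0.0027), with an input change of -0.22. Its whole coding sequence of 111 bases is shown to make clear how little sequence carries this value; capitals mark the start codon (GENCODE M21, GRCm38, chr5:30907425-30907535 minus strand).
Ost4: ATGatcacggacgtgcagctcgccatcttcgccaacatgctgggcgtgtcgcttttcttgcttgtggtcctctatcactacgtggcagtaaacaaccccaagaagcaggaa
None of its windows of 28 bases occurred in another coding sequence. Of the 10 tested oligosaccharyltransferase genes 8 had a positive change, against 3028 of all 6260 genes, and the median was 0.17. For 3 of the 10 the knockout pair lay wholly above the control pair, and for 2, Ost4 among them, wholly below it. Over all 6260 genes these counts were 1350 and 1303. Dad1 (0.86), Krtcap2 (0.65) and Ostc (0.54) lay higher in both knockout libraries than in either control library and did not pass (adjusted p = 0.39, 0.62 and 0.55).

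No other list of the secretory route held a gene that passed. Over all 6260 tested genes, 679 had an unadjusted limma p under 0.05. Of the proteins that bring mRNAs to the ER and fold their products, the signal recognition particle and its receptor had 6 tested genes (median -0.06), of which 0 had an unadjusted limma p under 0.05, the translocon and signal peptidase 18 (median 0.12) with 2 such genes, and ER chaperones 26 (median -0.03) with 3. Of the route's carriers and cargo, vesicle coats and p24 proteins had 25 tested genes (median -0.06, 2 such genes), TMEM proteins 49 (0.26, 2), solute carriers outside mitochondria 62 (0.02, 3), receptors and adhesion proteins 57 (-0.09, 7) and secreted and matrix proteins 48 (0.10, 10). In these lists edgeR called 2 genes, Sar1a (-1.51), which starts the budding of COPII vesicles, and the phosphate transporter gene Slc20a2 (-1.23). DESeq2 called 0 but left most of these genes without an adjusted p, among them 48 of the 49 TMEM proteins and 50 of the 62 solute carriers. Sar1a had 73.9 and 109 units in knockout and 315 and 240 in control (limma adjusted p = 0.098). Hspa5, the main ER chaperone, had 2317 and 1773 in knockout and 2166 and 1509 in control (0.16 ± 0.20), with overlap. Sec61a1, the channel subunit of the translocon, had 493 and 435 in knockout and 386 and 432 in control (0.18 ± 0.24). For TMEM proteins the knockout pair lay wholly above the control pair in 17 of 49 genes and wholly below it in 5. Over all 6260 genes it lay above in 1350 and below in 1303. The knockout replicates differed over the 49 TMEM genes by a median of -0.24.

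Proteins with a stretch of 19 residues of mean Kyte-Doolittle hydropathy of at least 1.6 had median changes close to those of the other genes. This crude class is not the same as proteins with a signal peptide or membrane helix. The secreted proteins Fn1, Nid1 and Sparc had no such stretch, while the cytosolic Eef2 and the nuclear Mcm3 had one. With such a stretch within the first 40 residues, 0 of 456 genes rose and 1, Ost4, fell (median 0.00). With a stretch further on only, 3 of 1183 rose, namely Rpl3, Rps27 and Uqcrfs1, and 0 fell (median -0.00). Without any, 18 of 4619 rose and 17 fell (median -0.02). The groups also differed in footprint level, with median RPF values of 114, 145 and 165. The part of level in these counts was not tested.

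Calcium handling held 1 gene that passed of 27 tested (median -0.05), against 39 of all 6260 tested genes. Calm3, which encodes the calcium sensor calmodulin, rose to 1085 and 949 units in knockout, against 461 and 529 in control (log2 change 1.02 ± 0.21, adjusted p = 0.043). Atp2a2, the pump that fills the ER with calcium, had 1158 and 1026 in knockout and 1548 and 1377 in control (-0.42 ± 0.18, adjusted p = 0.42), which did not overlap and did not pass. Atp2b1, a calcium pump of the plasma membrane, had 73.9 and 31.1 in knockout and 106 and 132 in control (-1.13 ± 0.51, adjusted p = 0.44).

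Among the genes that passed were Gar1 and Exosc2, each from a list of RNA-related proteins. Gar1, a protein of the box H/ACA particles that modify rRNA, fell to 123 and 140 units in knockout, against 425 and 485 in control (log2 change -1.72 ± 0.29, adjusted p = 0.010). Exosc2, a subunit of the RNA exosome, which like DIS3L2 degrades RNA from its 3′ end, fell to 633 and 762 in knockout, against 1650 and 2325 in control (-1.48 ± 0.21, adjusted p = 0.0029). For both genes the groups did not overlap. Gar1 rested on 15 and 9 reads in knockout and 108 and 250 in control, and DESeq2 gave it no adjusted p. Snrpd3 and Lsm3 passed too and belong to none of the lists. Snrpd3, a core protein of the splicing particles, fell to 1389 and 1197 in knockout, against 3403 and 2845 in control (-1.26), and Lsm3, of the related ring on U6 RNA, fell to 279 and 280 in knockout, against 583 and 797 in control (-1.26). Hnrnpa3, an RNA-binding protein with most of its coding windows also in Gm6793 (851 of 1110), fell by 1.27, and Tra2a, a splicing regulator, rose to 1191 and 980 in knockout, against 449 and 493 in control (1.18).

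Exosc2 was the only gene called among 28 genes of the exosome and the DIS3L2 pathway (median -0.00), Gar1 the only one among 21 snoRNP and nucleolar proteins (median -0.21), and 1 rose and 1 fell among 34 hnRNP and SR proteins (median -0.05). Among all 6260 tested genes 39 passed. Exosc3, another exosome subunit, had 444 and 389 in knockout and 276 and 304 in control (0.50, adjusted p = 0.52). Zcchc11, which encodes an enzyme that adds uridines to RNA, had 271 and 187 in knockout and 417 and 271 in control, the nearest values being almost equal (-0.56, adjusted p = 0.56).

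In the mitochondrion, complex III of the respiratory chain held 1 gene in each direction. Uqcrh, its hinge protein, fell to 427 and 513 units in knockout, against 1205 and 1406 in control (log2 change -1.46 ± 0.21, adjusted p = 0.0033). Uqcrfs1, its Rieske iron-sulfur protein, rose to 904 and 1353 in knockout, against 441 and 539 in control (1.16 ± 0.24, adjusted p = 0.039). These were the only calls among 85 tested genes of oxidative phosphorylation (median 0.08), while 0 of 71 mitochondrial ribosomal proteins (median 0.03) and 0 of 40 import and carrier proteins (0.13) passed in limma or in edgeR, with 9 of each list at an unadjusted limma p under 0.05. Over all 6260 tested genes, 39 passed in limma and 679 had an unadjusted limma p under 0.05. DESeq2 called 0 of both lists but gave no adjusted p for 67 of the 71 and 27 of the 40 genes. The groups did not overlap for either gene of complex III.

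Genes of the cytoskeleton fell where they passed. Stmn1, which encodes stathmin, a protein that binds tubulin and takes microtubules apart, fell to 764 and 995 units in knockout, against 2450 and 2684 in control (log2 change -1.54 ± 0.18, adjusted p = 0.0015). Myl6, a light chain of myosin, fell to 460 and 746 in knockout, against 1642 and 1838 in control (-1.55 ± 0.23, adjusted p = 0.0033). Actb, cytoplasmic actin, fell to 12037 and 13296 in knockout, against 18813 and 17818 in control (-0.53 ± 0.11, adjusted p = 0.037), the smallest change of the 39 genes. The list of 29 tubulins, actins and related genes nevertheless had a median of 0.05 and took 1.67% and 1.78% of RPF reads in knockout and 2.06% and 2.05% in control. Tubb5, a beta tubulin, had 9210 and 9190 in knockout and 8806 and 7542 in control (0.17, adjusted p = 0.63).

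The largest rise was that of Grb10 (chr11:11930508-12038683, GRCm38), an imprinted gene for an adaptor that restrains insulin and growth factor receptors. It had 493 and 342 units in knockout, against 39.4 and 81.4 in control, a log2 change of 2.65 ± 0.39 (adjusted p = 0.0033). Grb10 was the only gene of the 39 whose input level moved to a like extent, by 2.20, while the input changes of the other 38 lay between -0.25 and 0.30. Of 16 tested imprinted genes it was the only call in limma and edgeR (median -0.08), and 8 of the 16 had an unadjusted limma p under 0.05, against 679 of all 6260 genes. DESeq2 called 0 and gave no adjusted p for 13 of them. Phlda2, which restrains growth of the placenta, had 583 and 435 in knockout and 843 and 877 in control (-0.76, adjusted p = 0.23). Impact, an inhibitor of the kinase GCN2, had 362 and 451 in knockout and 205 and 242 in control (0.83, adjusted p = 0.31), and Peg10, derived from a retrotransposon, had 830 and 622 in knockout and 500 and 440 in control (0.60, adjusted p = 0.37). The groups did not overlap for these 3 genes, and the input change of Peg10 was 0.71. Pdcd5, named for programmed cell death, rose to 666 and 902 in knockout, against 134 and 277 in control (1.95 ± 0.32, adjusted p = 0.0074), with an input change of 0.09. Mob2, a regulator of NDR kinases, rose to 419 and 373 in knockout, against 94.5 and 138 in control (1.71 ± 0.32, adjusted p = 0.022), with an input change of 0.03. Ywhag, a 14-3-3 adaptor protein, fell to 1068 and 902 in knockout, against 2331 and 1966 in control (-1.12).

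Stem cell identity genes gave no call in limma. Of 36 pluripotency genes 0 passed in limma (4 at an unadjusted p under 0.05), 0 in DESeq2 (no adjusted p for 11) and 1 in edgeR, Fbxo15, a target of the pluripotency network, with 320 and 358 units in knockout and 851 and 553 in control (limma adjusted p = 0.14). The list had a median of -0.13, with 24 of 36 genes below 0. Over all 6260 tested genes, 3028 lay above 0 and 3232 below, and 679 had an unadjusted limma p under 0.05. Pou5f1 had 1545 and 1586 in knockout and 1808 and 1922 in control (-0.25 ± 0.16), and Nanog had 1586 and 1197 in knockout and 1776 and 1497 in control (-0.24 ± 0.19). Both encode transcription factors that keep the pluripotent state, and only Nanog overlapped between groups. Primitive endoderm genes, which mark an extraembryonic lineage that lines the yolk sac, all had a positive change (6 of 6 tested, median 0.51), beside a median input change of 0.52, and 0 passed in limma (2 at an unadjusted p under 0.05), edgeR or DESeq2 (no adjusted p for 2). Of a separate set of 10 markers of this lineage, 6 were listed (Cubn, Dab2, Col4a1, Col4a2, Lama1 and Lamb1). The transcription factor genes Gata4, Gata6, Sox17 and Foxa2 were not. The 6 listed markers summed to 2498 and 2115 in knockout and to 1721 and 1517 in control. In such bulk libraries the number of cells of a type and the RNA per cell cannot be told apart. Col4a1, a basement membrane collagen, had 715 and 529 in knockout and 386 and 335 in control (0.76, adjusted p = 0.29). Nid1, a basement membrane gene outside this list, went the other way, with 156 and 156 in knockout and 299 and 330 in control (-0.97, limma adjusted p = 0.26).

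Lists of general cell upkeep gave no calls in limma, edgeR or DESeq2 either. The proteasome had 39 tested genes, a median of -0.07 and 7 genes with an unadjusted limma p under 0.05, and the CCT chaperonin 7, -0.06 and 1. Glycolysis had 16 tested genes (median -0.05, 3 at that p), the MCM helicase, which opens DNA for replication, 9 (-0.19, 2), and targets of ATF4, the transcription factor of the amino acid response, 17 (-0.08, 2). An unadjusted limma p under 0.05 was reached by 679 of all 6260 tested genes. DESeq2 gave no adjusted p for 7 proteasome, 3 glycolysis, 1 MCM and 11 ATF4 target genes. Ptges3, a partner of the chaperone Hsp90 (0.78), the cyclin gene Ccnb2 (-0.98) and the replication licensing gene Cdt1 (-0.99), which belong to none of these lists, were among 20 genes called by edgeR and DESeq2 but not by limma.

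Genes that passed shared features that the choice of genes did not use. Their median coding length was 408 bases, against 1479 over all tested genes, and 25 of the 39 (64.1%) had coding sequences under 600 bases, against 825 of 6258 (13.2%). By quintiles of coding length, from short to long, 30, 8, 0, 1 and 0 genes passed. The one long gene was Grb10, with 1788 coding bases. The genes that passed also had higher footprint levels (median RPF value 1412, against 156 over all tested genes). Genes of like level were not compared. More than 50% of the 28-base windows were shared with another coding sequence in 12 of the 39 (30.8%), against 124 of all genes (1.98%), and the median change of that class was 0.24, beside a median difference of -0.21 between the control replicates. Chromosome 13 held 11 of the genes that passed among 255 tested there, and 10 of the 39 were histone genes.

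**Figure D4:**
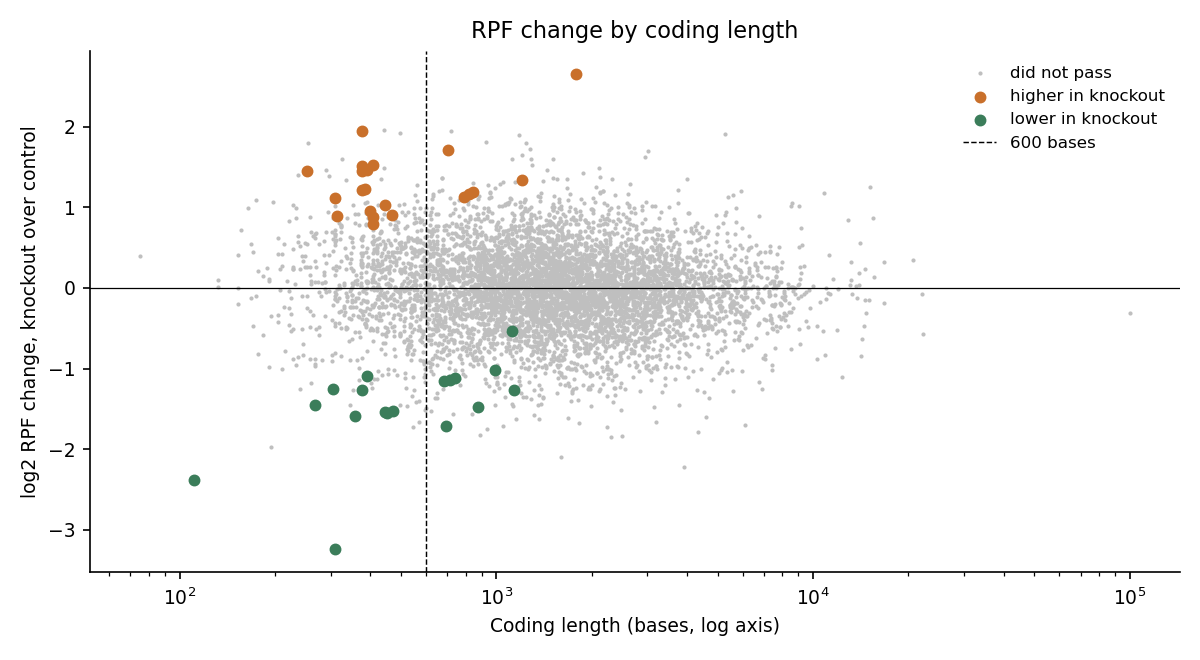
Log2 RPF change (knockout over control, vertical axis) against coding length (bases, log axis) for tested genes with an annotated coding sequence. Genes that rose are orange, genes that fell green and the rest grey, and 25 of the 39 genes that passed lie left of the dashed line at 600 bases.

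The SE of a footprint change fell as footprint level rose. In the lowest quintile of RPF values, up to 78.3 units, the median SE of the log2 change was 0.57 and 0 of 1252 genes passed; in the highest quintile, from 410 units upward, the SE was 0.22 and 36 passed. The SD between replicates was 0.748 in knockout and 0.389 in control in the lowest quintile, and 0.275 in knockout and 0.199 in control in the highest. Counting of reads alone would give 0.568 in knockout and 0.279 in control in the lowest quintile, and 0.187 in knockout and 0.0913 in control in the highest. The replicates thus differed by more than counting in both groups. Over genes, which are no independent replicates, the log2 values correlated with Pearson's r = 0.841 between the knockout libraries and 0.955 between the control libraries. Between a knockout and a control library r was 0.863 to 0.896, above that of the knockout replicates. The knockout libraries were also the shallowest, with 268255 and 140163 reads, against 558962 and 1126782 in control. The part of depth in these correlations was not tested. In knockout replicate 2, 47.0% of tested genes had under 10 reads, and in knockout replicate 1 21.1%. In control the shares were 3.29% in replicate 1 and 0.0799% in replicate 2. Changes of genes in the lowest quintile were not detected, which does not show that they were absent. The part of depth in the SE was not tested.

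**Figure D5:**
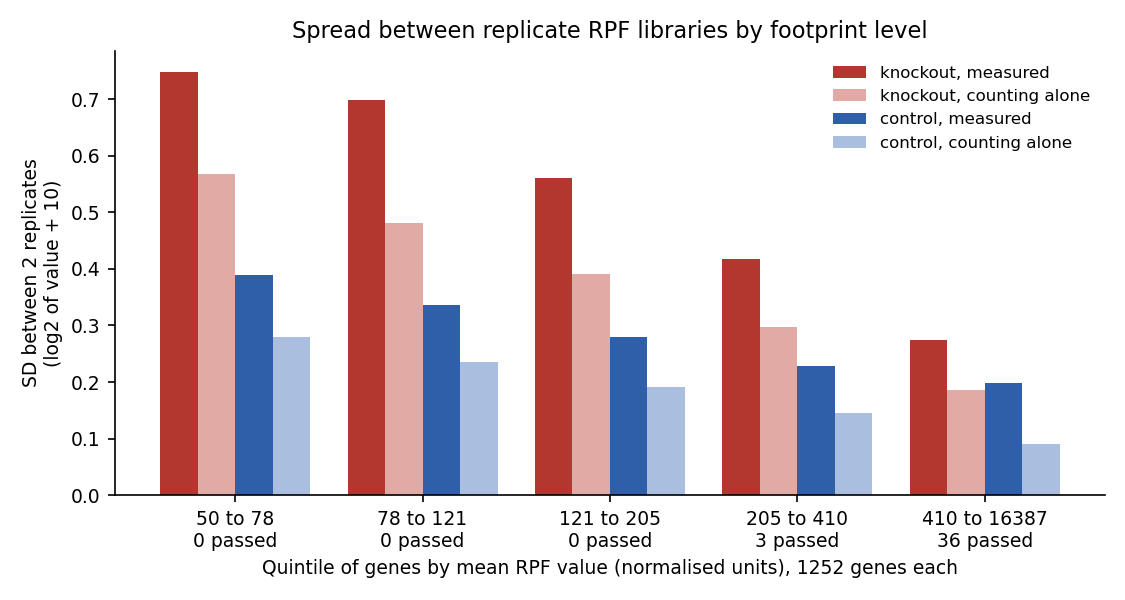
SD between the 2 replicates of log2 (value + 10) in each quintile of genes by mean RPF value (normalised units), as measured and as counting alone would give, for knockout (red) and control (blue). The measured spread in knockout was 0.748 in the lowest quintile and 0.275 in the highest, above that of control (0.389 and 0.199), and the labels under the bars give how many genes passed in each quintile.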

How the data were processed

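The study made ribosome profiling libraries of mESCs, and the 4 RPF libraries were compared. The authors, by the study's methods, trimmed and quality-filtered reads, removed rRNA and tRNA reads, aligned the rest to canonical mm10 gene models with Bowtie allowing at most 1 mismatch, and counted RPFs over the coding sequence. The signal values that the authors deposited are read counts divided by 1 factor per library, not by gene length: 1 read was worth 8.22 and 15.6 units in knockout and 3.94 and 1.94 in control, and 100% of values were whole reads within 0.02. The log2 column that the authors deposited holds their change of translation efficiency. It was used only to check direction, and 0 columns of library values were left unused.

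Genes with a mean of at least 50 were tested with limma 3.58.1 under R 4.3.3 (two-sided; lmFit, then eBayes with the prior variance as a trend on the mean) on log2(value + 10), which understates changes of low genes. P-values were adjusted by Benjamini-Hochberg over 6260 genes. edgeR 4.0.16 (quasi-likelihood) and DESeq2 1.42.0 were run on the recovered whole reads. PCR copies were not marked, so counting spread covers counting error only, and p-values measure the spread between these libraries. Scripts were tested on simulated data. As alternatives, pseudocounts of 1 and 30, no filter, a mean of at least 200, equalised medians, no mean trend, thinned reads, a replicate block and each library left out were run; edgeR on thinned reads and leaving out genes with shared coding windows were added after seeing the data. Coding sequences came from GENCODE M21 (GRCm38), matched for 8125 of 8125 identifiers without version; 14 symbols stored as dates were repaired. The members and lists were chosen with earlier results of these data known. Named genes were those that passed outside the control range, those of highest mean, up to 4 per list by smallest p, up to 10 in each direction called by edgeR and DESeq2 alone, and 6 fixed genes; the text describes some of them, and a few others are left out here. Gm6793 and Rps27rt were named after seeing the data.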

Additional observations from a re-analysis of the deposited data

How the results depend on the processing

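The 38 passing genes plotted by library kept their direction under all alternatives that gave them a value. That was largely fixed in advance, since for each of them the knockout pair lay outside the control pair. The number of genes that passed changed with the setting. Pseudocounts of 1 and 30, no filter, equalised library medians and DESeq2 gave 38, 45, 43, 29 and 56 genes. A mean of at least 200 gave 84 (45 higher, 39 lower) and edgeR on whole reads 90 (46 higher, 44 lower). limma without a mean trend gave 0 (0 higher, 0 lower; 597 at an unadjusted p under 0.05), reads thinned to the shallowest library 0 in limma (0 higher, 0 lower; 449) and 0 in edgeR (0 higher, 0 lower; 454). The prior degrees of freedom by which these tools pool spread were 12.1 in limma as reported, 3.78 without the trend and 3.25 on thinned reads, and 52.3 and 4.06 in edgeR on whole and thinned reads. Leaving out genes with over 50% shared coding windows gave 25 (10 higher, 15 lower). Leaving out 1 library gave 34 to 873 genes (13 to 361 higher, 18 to 512 lower); there limma set each spread wholly by its trend, and the lone library was assumed to vary like the other group. Equalised medians ended the calls of Actb, Calm3, Hist1h2ac, Hist1h3e, Hist1h3h, Hist1h3i, Hist1h4i, Lsm3, Rpl36 and Uqcrfs1. Hspa5 ranged from -0.10 to 0.42 and Hist1h4c from -0.54 to 0.25 when 1 library was left out. The cause was not tested.

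With the replicate number as a block 126 genes passed (60 higher, 66 lower), among them these 38. In that fit too limma set each spread wholly by its trend, not by the gene's own libraries. The labels do not say whether equal numbers mark paired libraries. Over genes, the difference of replicate 1 and 2 in knockout and in control correlated at r = 0.0176. Noise from low read counts pulls such a value towards 0, so pairing stays unknown.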
